A study of Mus musculus with 10 samples.

Results

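The 10 genes described here encode the signalling machinery of the T cell antigen receptor, the chains Cd3d, Cd3e, Cd3g and Cd247 of the CD3 complex, the coreceptors Cd4, Cd8a and Cd8b1, and the first kinases and adaptor of the pathway, Lck, Zap70 and Lat. They were taken as a list of gene names, drawn up with earlier results of these data known, and all 10 were found among the 22607 genes of the data. The libraries came from antigen-presenting cells that had been sorted from wild-type C57BL/6 mice at 8 weeks of age. A first set of 4 libraries held cells positive for MHC class II (MHCII+) from the colon and the spleen. A second set of 6 held colonic mononuclear phagocytes and dendritic cells sorted as CD11c+, CD11b+CD11c+ or CD11b+. Each of the 5 groups had 2 libraries of polyadenylated RNA. The full gates are not given, and the tissue of a group was read from abbreviated sample titles and the design text. Whether the 2 libraries of a group are 2 animals, 2 pools or 2 preparations is not stated, so a p-value here sets a difference against the variation of these libraries, which may be technical.

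The T cell receptor has almost no cytoplasmic tail and signals through the CD3 chains, whose tails carry tyrosine-based activation motifs (ITAMs). Lck, which can bind the tails of CD4 and CD8, phosphorylates the ITAMs, and Zap70 binds the phosphorylated ITAMs. Active Zap70 phosphorylates the adaptor Lat, on which the downstream enzymes assemble. Dendritic cells and macrophages do not carry this receptor, but some of the genes are also used by other cells: Cd8a by splenic type 1 conventional dendritic cells (cDC1) as a homodimer, Cd4 in the mouse by some dendritic cells and gut macrophages, and Cd247, Lck, Zap70 and Lat by natural killer cells.

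Levels are given as TPM, a level scaled to the depth of the library and to the effective coding length, which allows comparison between genes. The libraries held 12806139 to 41769042 estimated counts. Itgam, which encodes CD11b, stood at 4.65 and 5.68 TPM in the CD11c+ libraries and at 108 to 115 TPM in the 4 CD11b-sorted ones. Itgax, which encodes CD11c, was not absent from the CD11b+ libraries, at 74.2 and 81.1 TPM against 98.5 to 132 TPM in those sorted on CD11c. H2-Aa, a chain of MHC class II, was at 3350 to 5703 TPM in all 10. Transcripts of other lineages were present, with 8 plasma cell genes at a sum of 7296 to 27578 TPM in the colonic libraries. Most of each sum was Igha and Jchain, at 18855 and 8079 TPM in CD11c+ library 2. The CD11c+ pair stood apart from each other. Library 1 was above library 2 in most T cell genes, but not in Cd4, and in cytotoxic genes. It was below library 2 in macrophage genes. Differences from CD11c+ cells are therefore also given without each of these libraries. TPM were computed within each library and the sets were fitted separately, so levels across the sets were set side by side without a test.

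The genes for the delta, epsilon and gamma chains lie together in 40.056 kb of mm10 chromosome 9, with Cd3g (ENSMUSG00000002033.14, 44969572 to 44980431) and Cd3d (ENSMUSG00000032094.8, 44981786 to 44987339) transcribed away from each other and Cd3e (ENSMUSG00000032093.7) at 44998740 to 45009627. Cd8b1 (71322788 to 71337494) and Cd8a (71373427 to 71379173) are neighbours within 56.386 kb of chromosome 6, and Cd4 (124864692 to 124888221) lies elsewhere on it. Cd247 (165788681 to 165877277) and Zap70 (36761798 to 36782818) are on chromosome 1, Lck (129548344 to 129573641) on chromosome 4 and Lat (126363824 to 126369570) on chromosome 7. The levels of Cd3d, Cd3e and Cd3g moved together over the libraries, so the 250 bases before their RefSeq starts (build GRCm38.p6) are shown, 5′ to 3′ on the strand of the gene. The windows are chr9:44981536-44981785 on the plus strand for Cd3d, chr9:45009612-45009861 on the minus strand for Cd3e and chr9:44980432-44980681 on the minus strand for Cd3g. Capitals mark AGGAAG on either strand, a form of the ETS factor motif, whose core is GGAA. GGAA with other flanking bases is not marked and also occurs, as in the Cd3g window. TGTGGT, the RUNX core, was searched in the same way and had no match in these 3 windows.
Cd3d: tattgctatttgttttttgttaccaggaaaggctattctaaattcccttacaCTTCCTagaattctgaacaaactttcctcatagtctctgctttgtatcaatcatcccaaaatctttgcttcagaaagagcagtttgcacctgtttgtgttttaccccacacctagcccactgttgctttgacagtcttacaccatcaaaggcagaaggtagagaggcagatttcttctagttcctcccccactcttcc
Cd3e: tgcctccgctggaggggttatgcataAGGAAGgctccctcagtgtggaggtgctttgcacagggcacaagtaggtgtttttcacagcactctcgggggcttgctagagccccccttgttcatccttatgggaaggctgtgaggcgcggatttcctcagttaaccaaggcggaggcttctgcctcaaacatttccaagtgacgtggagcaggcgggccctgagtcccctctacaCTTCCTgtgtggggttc
Cd3g: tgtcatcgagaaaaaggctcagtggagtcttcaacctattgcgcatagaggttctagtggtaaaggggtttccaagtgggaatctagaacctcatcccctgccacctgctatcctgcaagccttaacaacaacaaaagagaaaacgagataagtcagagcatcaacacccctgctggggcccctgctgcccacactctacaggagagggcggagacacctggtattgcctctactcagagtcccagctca

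RefSeq promoter entries matched 8 of the 10 genes; Cd4 and Cd8b1 had none. Of these 8 genes, 6 had at least 1 AGGAAG match within 250 bases before a start, against 29.5% of 32851 promoter windows, and some of the 8 had several windows. TGTGGT occurred before 2 of the 8 (14.05% of all windows), CANNTG, the E-box, before all 8 (66.2%), and TATAAA before none (12.4%). All were searched on both strands, matches of different motifs shared no letters in the 11 windows of these genes, and a match is a description of sequence only.

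Among the colonic groups, the mean level of each CD3 chain was highest in CD11c+ cells and lowest in the groups sorted on CD11b. As RNA came from bulk populations, fewer cells of a type and less RNA per cell cannot be told apart. Cd3e, which with the delta and gamma chains forms the dimers that bind the receptor, stood at 24.02 and 37.0 TPM in splenic MHCII+ cells, 9.17 and 6.71 in colonic MHCII+ cells, 66.0 and 15.6 in CD11c+ cells, 3.11 and 0.718 in CD11b+CD11c+ cells and 1.59 and 1.70 in CD11b+ cells. The spleen libraries lay between the CD11c+ libraries, and the libraries of the CD11b-sorted groups overlapped and lay below all others. Cd3g was the most abundant chain in CD11c+ cells, at 166 and 40.8 TPM, against 45.9 and 64.2 in the spleen, 15.9 and 22.2 in colonic MHCII+ cells, 8.97 and 1.42 in CD11b+CD11c+ cells and 4.27 and 2.47 in CD11b+ cells. Its order of groups was that of Cd3e.

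Cd3d stood at 38.7 and 56.9 TPM in splenic MHCII+ cells, 13.1 and 31.9 in colonic MHCII+ cells, 75.2 and 19.2 in CD11c+ cells, 3.38 and 2.88 in CD11b+CD11c+ cells and 1.34 and 1.07 in CD11b+ cells. The first 3 of these groups overlapped as neighbours in the order of their means. The value of 2.88 rested on 5 estimated counts, 1 of which fell on a transcript of 117 coding bases and made up 83.5% of that TPM, and the transcript of 522 coding bases alone was at 0.474 TPM. The zeta chain gene Cd247, whose product brings the most ITAMs to the complex, spanned a narrower range: 29.7 and 38.2 TPM in splenic MHCII+ cells, 11.1 and 7.47 in colonic MHCII+ cells, 28.1 and 13.0 in CD11c+ cells, 3.98 and 2.47 in CD11b+CD11c+ cells and 3.26 and 5.20 in CD11b+ cells. Only the neighbouring CD11b-sorted groups overlapped in Cd247.

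The kinases and the adaptor followed the chains. Lck stood at 31.4 and 35.5 TPM in splenic MHCII+ cells, 9.59 and 11.5 in colonic MHCII+ cells, 46.5 and 17.8 in CD11c+ cells, 2.63 and 1.56 in CD11b+CD11c+ cells and 1.41 and 1.87 in CD11b+ cells. Zap70 was at 15.1 and 18.9 TPM in splenic MHCII+ cells, 7.96 and 7.40 in colonic MHCII+ cells, 52.3 and 18.1 in CD11c+ cells, 1.62 and 1.37 in CD11b+CD11c+ cells and 1.78 and 1.72 in CD11b+ cells. Lat was at 41.8 and 54.8 TPM in splenic MHCII+ cells, 9.59 and 9.87 in colonic MHCII+ cells, 28.6 and 9.63 in CD11c+ cells, 2.53 and 1.13 in CD11b+CD11c+ cells and 1.62 and 1.60 in CD11b+ cells. Lat was thus higher in the spleen than in either CD11c+ library, whereas Zap70 had its highest value in a CD11c+ library and CD11c+ library 2 lay within the splenic range. For Lat, CD11c+ library 2 lay within the range of colonic MHCII+ cells. In all 3 genes the CD11b-sorted libraries were the lowest, but the share of all genes with this order was not counted.

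The coreceptors differed from the chains and from each other. Cd8a was at 94.9 and 88.3 TPM in splenic MHCII+ cells, 3.89 and 2.86 in colonic MHCII+ cells, 82.6 and 22.7 in CD11c+ cells, 3.32 and 0.240 in CD11b+CD11c+ cells and 0.931 and 1.13 in CD11b+ cells, so that CD11b+CD11c+ library 1 lay within the colonic MHCII+ range. Cd8b1, whose product pairs with CD8 alpha on conventional cytotoxic T cells, was at 26.3 and 37.9 TPM in the spleen, 1.45 and 2.13 in colonic MHCII+ cells and 4.22 and 3.68 in CD11c+ cells. It had no count in either CD11b+CD11c+ library and 0 and 6 counts, 0 and 0.386 TPM, in the CD11b+ libraries. Cd4 alone was high in the CD11b-sorted cells, at 34.9 and 58.6 TPM in CD11b+CD11c+ cells and 39.6 and 51.7 in CD11b+ cells, ranges that overlapped each other and, for CD11b+CD11c+ cells, the 55.1 and 62.9 TPM of the spleen. It stood at 11.2 and 10.6 TPM in colonic MHCII+ cells and at 3.48 and 19.6 TPM in CD11c+ cells.

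**Figure D1:**
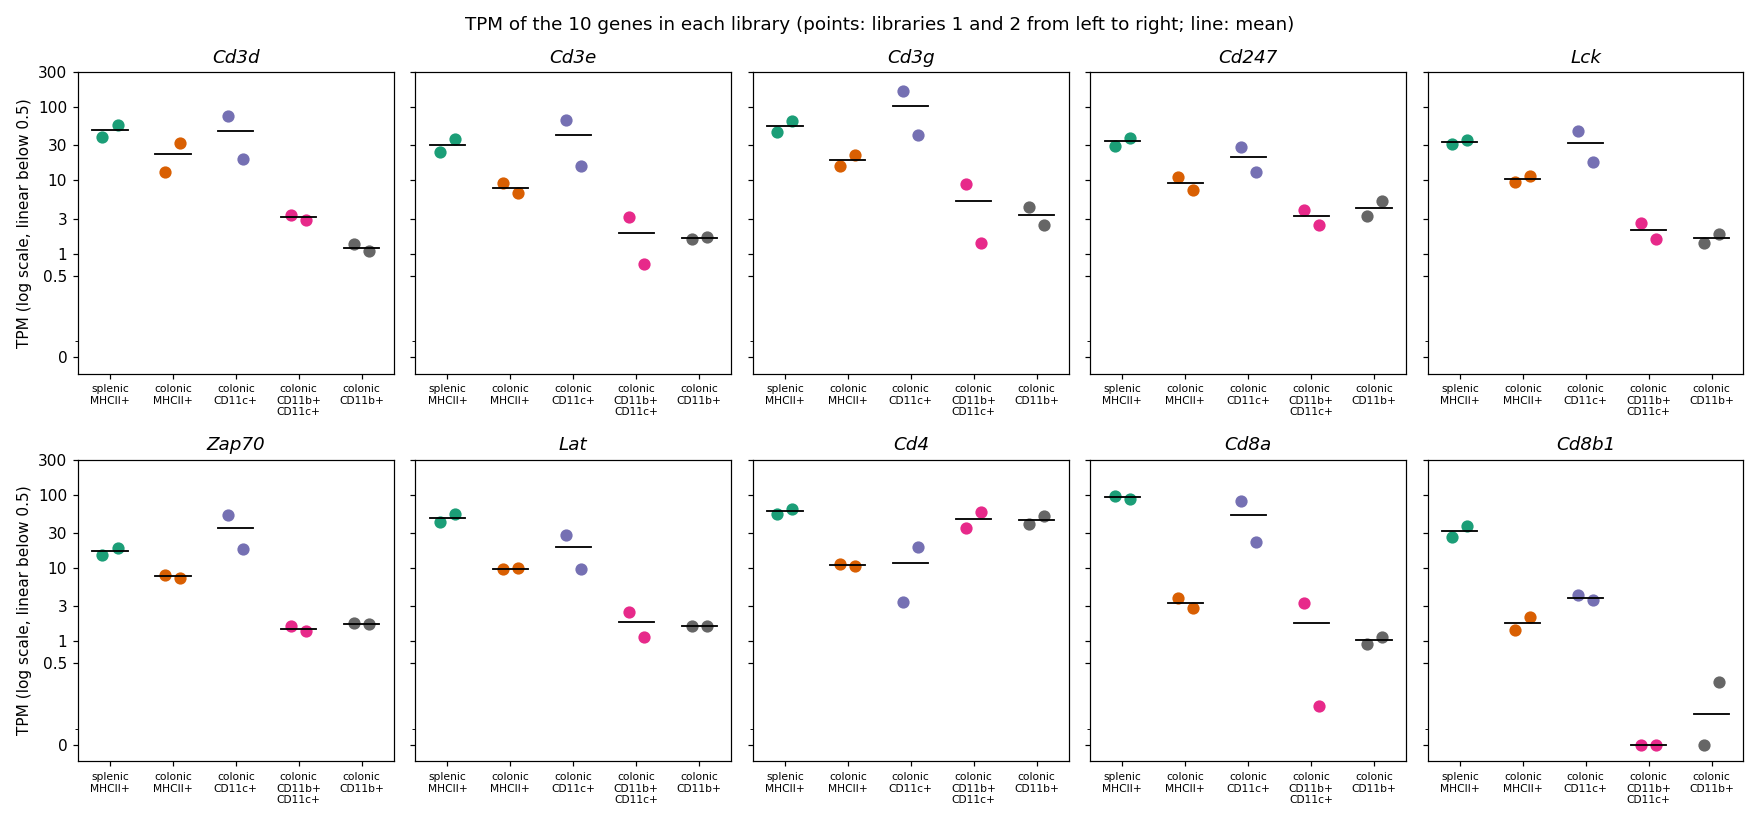
TPM of the 10 genes on a log axis (linear below 0.5), 1 panel per gene, with a point for each library of the 5 groups and a line at the group mean. In 8 panels the CD11b+CD11c+ and CD11b+ points are the lowest, but the share of all genes with this order was not counted. In the Cd8a panel CD11b+CD11c+ library 1 overlaps colonic MHCII+ cells. In the Cd4 panel the CD11b-sorted points stand between 34.9 and 58.6 TPM, above colonic MHCII+ and CD11c+ cells.

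Over the 10 libraries, Pearson's r of log2(TPM + 1) was 0.89 to 0.98 for the 21 pairs among the CD3 chains, Lck, Zap70 and Lat, 0.75 to 0.96 for Cd8a or Cd8b1 with these 7, and -0.56 to 0.06 for Cd4 with the other 9. These are descriptions over 5 groups of 2 libraries that share tissue, gate and depth, with no test. By the same measure, the gene most like each member among those with a mean of at least 1 TPM was Fryl (0.99) for Cd3d, Gimap4 (0.98), a lymphocyte GTPase, for Cd3e, Ptpn22, a phosphatase that acts on Lck and Zap70, for Cd3g (0.98) and Zap70 (0.99), and Rbm45 (0.99) for Cd247. It was Mns1 (0.99) for Cd8a, L3mbtl2 (0.99) for Cd8b1, Nudt21 (0.99) for Lck, followed by Cd27, a lymphocyte costimulatory receptor (0.99), and Csnk1g2 (0.99) for Lat. The 3 genes most like Cd4 were Hk3, a hexokinase (0.98), Lair1, an inhibitory receptor for collagen (0.97), and Slc29a3, a nucleoside transporter (0.96). Hk3 stood at 76.7 to 125 TPM in the 4 CD11b-sorted libraries and at 8.56 and 27.7 TPM in CD11c+ libraries 1 and 2. Pearson's r does not measure the size of a change. Over the 10 libraries Nudt21 ranged from 33.2 to 62.2 TPM, whereas Lck ranged from 1.41 to 46.5 TPM.

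Ratios within a library set the coreceptors against Cd3e without the depth of the library. Cd4 to Cd3e was 2.29 and 1.70 in splenic and 1.23 and 1.57 in colonic MHCII+ cells, 0.0527 and 1.26 in CD11c+ cells, 11.2 and 81.6 in CD11b+CD11c+ cells and 24.9 and 30.3 in CD11b+ cells. All 4 CD11b-sorted libraries lay above the other 6. Cd8a to Cd3e was 3.95 and 2.39 in the spleen, above every colonic library, then 1.25 and 1.46 in CD11c+ cells, 1.07 and 0.335 in CD11b+CD11c+ cells, 0.585 and 0.663 in CD11b+ cells and 0.424 and 0.427 in colonic MHCII+ cells. Cd8b1 to Cd8a was 0.277 and 0.429 in splenic and 0.373 and 0.744 in colonic MHCII+ cells but 0.0511 and 0.162 in CD11c+ cells, the lowest of the libraries with a Cd8b1 count. Ratios in CD11b-sorted cells rest on few counts, 7 to 35 for Cd3e and 3 to 54 for Cd8a. Cd247 to Cd3e was 0.425 and 0.836 in CD11c+ cells and 1.03 to 3.43 in the other 8 libraries.

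**Figure D2:**
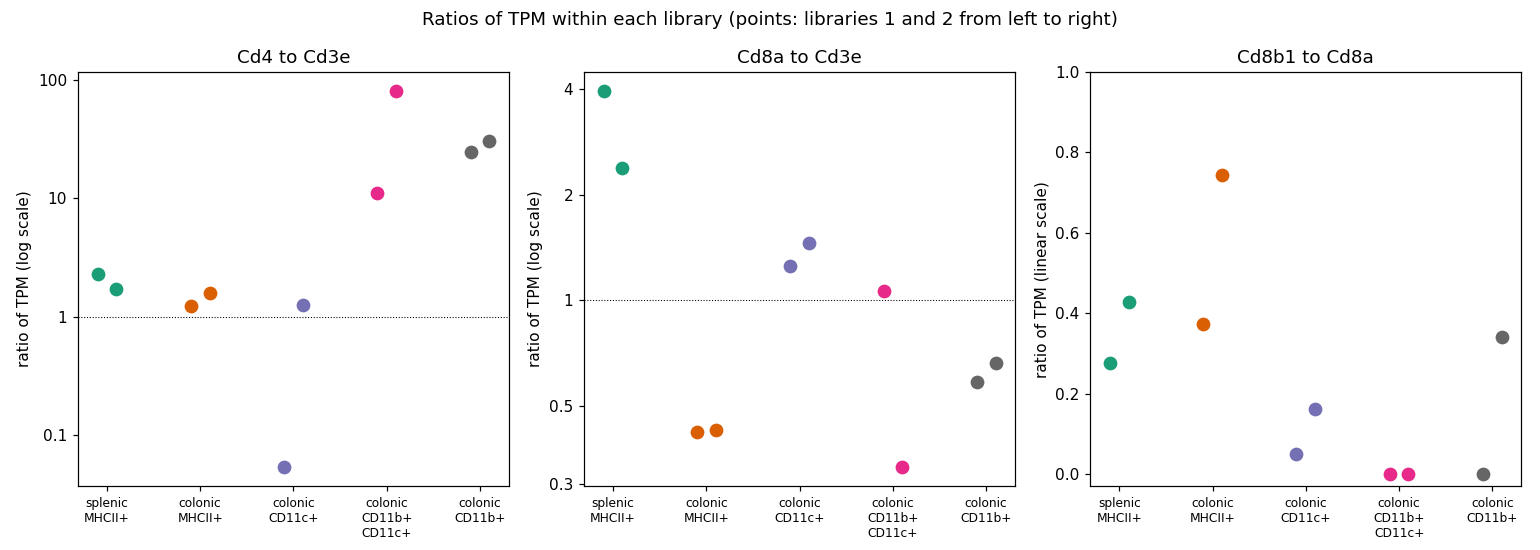
Ratios of TPM within each library for Cd4 to Cd3e and Cd8a to Cd3e (log axes, dotted line at 1) and Cd8b1 to Cd8a (linear axis), with a point for each library of the 5 groups. Cd4 to Cd3e is 11.2 to 81.6 in the 4 CD11b-sorted libraries and at most 2.29 elsewhere, and Cd8b1 to Cd8a in CD11c+ cells stays at 0.0511 and 0.162.

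The first comparison set colonic against splenic MHCII+ cells. Of the 10 genes, 8 were lower in the colon and none higher, with a median log2 fold change of -1.69 against 0.02 over all genes tested. In the same edgeR test 28.7% of 15076 genes were lower and 31.6% higher. Fold changes are on the log2 scale of fitted CPM, counts scaled to library depth with no length, colon minus spleen, and every adjusted p is from edgeR's quasi-likelihood test with Benjamini-Hochberg adjustment over all genes tested.

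Cd8a and Cd8b1 had the largest differences among the 10 genes. Cd8a stood at 3.73 ± 0.655 CPM in the colon and 88.4 ± 7.74 CPM in the spleen (SD, n = 2 each), 23.3 times lower (log2 fold change -4.54, SE 0.16, adjusted p = 5.08e-06). Cd8b1 was 16.2 times lower (-4.01, SE 0.30, adjusted p = 7.03e-05). Cd4 was 4.83 times lower, at 26.5 ± 0.944 against 128 ± 6.59 CPM (-2.27, SE 0.10, adjusted p = 9.55e-06). The groups did not overlap in any of the 3, but the share of all genes without overlap was not counted.

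Lat fell by 2.23 on the log2 scale (SE 0.20, adjusted p = 1.53e-04), Cd3e by 1.75 (SE 0.26, adjusted p = 0.00137), Cd247 by 1.62 (SE 0.21, adjusted p = 8.3e-04), Lck by 1.51 (SE 0.12, adjusted p = 1.04e-04) and Cd3g by 1.35 (SE 0.26, adjusted p = 0.00431). With all 10 libraries in 1 fit, Cd3g did not pass (adjusted p = 0.110). The coreceptor differences thus ranged from -2.27 to -4.54 and those of the chains, Lck and Lat that passed from -1.35 to -2.23; the difference between them was not tested.

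Cd3d and Zap70 did not pass. Cd3d had a log2 fold change of -0.83 (SE 0.43, adjusted p = 0.133), with colonic library 2 at 31.9 TPM and a Cd3d to Cd3e ratio of 4.76, against 1.43 to 1.61 in the other 3 MHCII+ libraries. Without that library Cd3d was lower in the colon (-1.70, adjusted p = 0.00123). Zap70 had a log2 fold change of -0.34 (SE 0.25, adjusted p = 0.284) in counts, where the groups overlapped at 20.8 ± 6.58 and 26.1 ± 5.13 CPM, but did not overlap in TPM. An effective length offset gave -0.98 (adjusted p = 0.00864), limma on log2(TPM + 1) gave -1.04 (adjusted p = 0.0106), and leaving out colonic library 2 gave -0.70 (adjusted p = 0.0292).

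The Zap70 difference between scales sits in 1 short transcript. It has 257 coding bases, all of them also in the long transcript of 1857 coding bases, and took 3.51% of the Zap70 counts of colonic library 1, none of 436 counts in colonic library 2 (at most 0.843%, the upper 95% exact limit) and 5.63% and 5.08% in the spleen. Because it is short, these counts made 42.9%, 55.8% and 49.8% of Zap70 TPM where they were present. On the long transcript alone, TPM were 4.55 and 7.40 in the colon and 6.68 and 9.47 in the spleen, and the groups overlapped.

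Other genes of the pathway, from a list of 28 receptor signalling partners, were 16 lower, 3 higher and 9 not passing, with a median log2 fold change of -0.92. The higher ones were the costimulatory receptor Cd28 (1.40, adjusted p = 0.0022), the inhibitory receptor Ctla4 (2.47, adjusted p = 0.0010) and the adaptor Sh2d2a (0.92, adjusted p = 0.0060). Among the most abundant of them, Ptprc, the CD45 phosphatase of all leukocytes, had -1.42 (adjusted p = 6.1e-05), Csk, the kinase that restrains Lck, -1.47 (adjusted p = 7.7e-05) and Fyn, a Lck relative, 0.09 (adjusted p = 0.45). Of the 4 receptor chain genes in the files, Trac (-1.64, adjusted p = 0.0015) and Trbc2 (-1.45, adjusted p = 0.0016) were lower. Trbc1 (-0.17, adjusted p = 0.50), nearly identical to Trbc2 so that reads can be divided between them, and Trdc of the gamma-delta receptor (0.02, adjusted p = 0.97) did not pass. Of 11 T cell transcription factors 5 were lower, among them Tcf7 (-1.75) and Zbtb7b, which directs the CD4 lineage (-1.38), and 5 higher, among them Runx3, which directs the CD8 lineage and also acts in other leukocytes (0.72).

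Genes of other cells moved with this comparison. Of 11 cDC1 genes 10 were lower in the colon and 1 higher, with summed levels of 425 and 499 TPM in the colon and 1225 and 1079 TPM in the spleen. All 10 B cell genes were lower, at sums of 70.9 and 61.5 against 1233 and 1344 TPM. Of 14 macrophage genes 11 were higher and 1 lower, at 2698 and 3594 against 876 and 1055 TPM, and all 9 epithelial genes were higher, at 2848 and 2963 against 15.0 and 18.4 TPM. Of 8 neutrophil genes 7 were lower and none higher, at 1057 and 754 against 14602 and 21843 TPM, and all 8 plasma cell genes were higher. Of 12 genes of natural killer and innate lymphoid cells, which share Cd247, Lck and Zap70 with T cells, 6 were higher and 1 lower, at 729 and 578 against 411 and 419 TPM. Without Areg (192 and 159 against 0.530 and 0.745 TPM) these sums were 537 and 419 against 410 and 418 TPM. Most of what was left was Id2, at 348 and 245 against 317 and 297 TPM. The gene that was lower was Ncr1, a natural killer cell receptor (1.83 and 1.72 against 4.99 and 9.33 TPM). No gene of these lists was at 0 in a MHCII+ library, and their part in the differences of the 10 genes was not tested.

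The second question was how the colonic subsets differ, first CD11b+ against CD11c+ cells. Of the 10 genes, 9 were lower in CD11b+ cells and none higher, with a median log2 fold change of -4.27 against -0.02 over all genes. Of 14225 genes tested, 25.0% were lower and 27.0% higher. The CD11b+CD11c+ cells, compared with the same CD11c+ libraries, also had 9 lower and none higher, with a median of -4.29, or -4.26 with Cd8b1 at its bound, against -0.09 over all genes, of which 22.5% were lower and 20.4% higher. As both comparisons share their CD11c+ libraries, their values are given side by side and one does not support the other.

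Among the chains, the log2 fold change of CD11b+ and CD11b+CD11c+ cells was -5.29 (SE 0.88, adjusted p = 0.00437) and -4.46 (SE 0.82, adjusted p = 0.00753) for Cd3d, -4.68 (SE 0.86, adjusted p = 0.00595) and -4.38 (SE 0.84, adjusted p = 0.00865) for Cd3e, and -5.03 (SE 0.95, adjusted p = 0.00671) and -4.28 (SE 0.90, adjusted p = 0.0119) for Cd3g. Cd247 had the smallest of the differences that passed, at -2.14 (SE 0.41, adjusted p = 0.00700) and -2.42 (SE 0.42, adjusted p = 0.00620). In CPM, Cd3e was at 31.1 ± 26.5 in CD11c+ cells, 1.46 ± 1.29 in CD11b+CD11c+ cells and 1.205 ± 0.0728 in CD11b+ cells (SD, n = 2 each). No CD11b-sorted library reached the lower CD11c+ library in Cd3e.

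Among the kinases and the adaptor, Lck had -4.34 (SE 0.70, adjusted p = 0.00381) and -4.31 (SE 0.70, adjusted p = 0.00481), Zap70 -4.12 (SE 0.68, adjusted p = 0.00408) and -4.24 (SE 0.68, adjusted p = 0.00473), and Lat -3.57 (SE 0.56, adjusted p = 0.00352) and -3.53 (SE 0.56, adjusted p = 0.00456). Cd8a had -5.73 (SE 1.01, adjusted p = 0.00510) and -4.87 (SE 0.94, adjusted p = 0.00867). Cd8b1 had -4.21 (SE 0.78, adjusted p = 0.00904) in CD11b+ cells, from 6 counts in 1 of 2 libraries. In CD11b+CD11c+ cells it had no count and was at least 16.9-fold lower than the 3.66 ± 0.233 CPM of CD11c+ cells, taking 3 counts per library as the most that 0 allows (0.202 and 0.232 CPM; adjusted p = 0.00594).

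Cd4 went the other way and did not pass. It stood at 29.3 ± 29.3 CPM in CD11c+ cells, 116 ± 42.6 CPM in CD11b+CD11c+ cells and 109 ± 23.2 CPM in CD11b+ cells (SD, n = 2 each). The log2 fold change against CD11c+ cells was 1.91 (SE 0.74, adjusted p = 0.0702) for CD11b+ cells and 2.00 (SE 0.74, adjusted p = 0.0713) for CD11b+CD11c+ cells. Both CD11c+ libraries lay below all 4 others, but at 3.48 and 19.6 TPM they differed 5.62 times from each other. Leaving out either CD11c+ library gave a passing difference, 1.12 and 1.21 (adjusted p = 0.0433 and 0.0419) without library 1 and 3.65 and 3.74 (adjusted p = 8.49e-04 and 9.03e-04) without library 2. Cd4 also passed without a count filter (1.88, adjusted p = 0.0253, and 2.07, adjusted p = 0.0210), with all 10 libraries in 1 fit (1.92, adjusted p = 0.0320, and 2.10, adjusted p = 0.0284) and with the replicate number as a block (2.26, adjusted p = 0.0146, and 2.28, adjusted p = 0.0164).

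**Figure D3:**
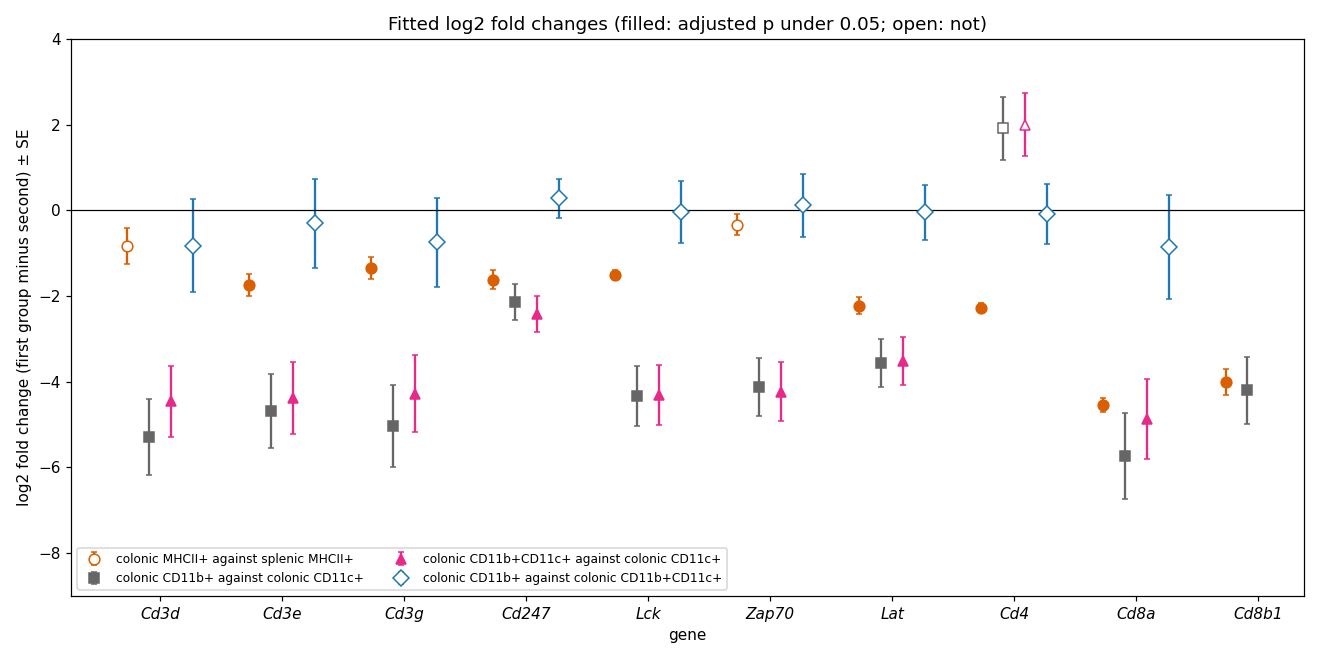
Fitted log2 fold changes with their standard errors for the 10 genes in 4 comparisons, filled where the adjusted p was under 0.05; Cd8b1 is left out of the comparisons that involve CD11b+CD11c+ cells, where it had no count. Against CD11c+ cells 9 genes lie below 0 in CD11b+ cells, from -2.14 to -5.73, and Cd4 lies above 0 with open symbols at 1.91 and 2.00.

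The size of the differences rested on which CD11c+ library was used, while the same 9 genes were lower in both comparisons without either of them. Without CD11c+ library 1 the median over the 10 genes was -3.44 in CD11b+ cells, and over the 9 genes other than Cd8b1 it was -3.05 in CD11b+CD11c+ cells. Without CD11c+ library 2 these medians were -4.77 and -4.83. For the chains, the log2 fold changes of CD11b+ and CD11b+CD11c+ cells without library 1 were -4.13 and -3.30 for Cd3d, -3.36 and -3.05 for Cd3e, -3.75 and -3.01 for Cd3g and -1.62 and -1.90 for Cd247. Without library 2 they were -5.93 and -5.09 for Cd3d, -5.37 and -5.06 for Cd3e, -5.70 and -4.94 for Cd3g and -2.53 and -2.80 for Cd247. The differences were thus smaller against library 2 than against library 1 in every chain. Without library 1, Lck was at -3.52 and -3.48, Zap70 at -3.21 and -3.33, Lat at -2.65 and -2.61 and Cd8a at -4.56 and -3.71. Without library 2, Lck was at -4.87 and -4.83, Zap70 at -4.68 and -4.79, Lat at -4.13 and -4.08 and Cd8a at -6.37 and -5.51. Cd8b1 moved little in CD11b+ cells, at -4.15 and -4.28 without library 1 or 2.

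Some calls changed without single CD11b-sorted libraries, in fits where fewer genes passed among all genes tested too. Without CD11b+CD11c+ library 2, Cd3e (log2 fold change -3.67), Cd3g (-3.48) and Cd247 (-2.10) no longer passed as lower in CD11b+CD11c+ cells. Without CD11b+ library 2, Cd3g (-4.70) no longer passed as lower in CD11b+ cells. These fits left 1 library in a group, whose spread was taken from the other groups.

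The rest of the pathway was described by the same lists. Of the 28 signalling partners, 21 were lower and 2 higher in CD11b+ cells and 22 lower and 2 higher in CD11b+CD11c+ cells, with median log2 fold changes of -2.31 and -2.30. Fyn was lower in both (-2.30, adjusted p = 5.8e-04, and -1.03, adjusted p = 0.0084), Lcp2, the adaptor SLP-76 that myeloid cells also use, was higher in both (1.99, adjusted p = 1.5e-04, and 2.05, adjusted p = 2.3e-04) and Ptprc did not pass in either (-0.01 and -0.08). All 4 receptor chain genes were lower in both, with medians of -4.46 and -4.39. Their summed level was 536 and 173 TPM in CD11c+ cells, 25.2 and 8.62 in CD11b+CD11c+ cells and 17.0 and 17.8 in CD11b+ cells.

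Myeloid cells signal through ITAMs with other proteins, the adaptors Fcer1g and Tyrobp and the kinase Syk in place of the CD3 chains and Zap70. Of 12 such myeloid and B cell kinases and adaptors, 10 were higher and 1 lower in each comparison with CD11c+ cells, with median log2 fold changes of 1.48 in CD11b+ cells and 1.10 in CD11b+CD11c+ cells. Fcer1g had 2.44 (adjusted p = 2.1e-04) and 2.39 (adjusted p = 2.7e-04), Tyrobp 1.46 (adjusted p = 3.0e-04) and 1.25 (adjusted p = 6.2e-04), and Syk 1.501 (adjusted p = 0.0012) and 1.49 (adjusted p = 0.0015). The gene that was lower was Clnk, an adaptor of the SLP-76 family, at -5.10 (adjusted p = 0.0021) and -4.17 (adjusted p = 0.0039). Of 11 T cell transcription factors, 7 were lower and 1 higher in each, with Tcf7 at -3.88 and -4.06 and Zbtb7b higher at 0.93 and 0.79.

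Marker genes of other cells moved with these comparisons too. All 12 intraepithelial and cytotoxic lymphocyte genes were lower in both, with medians of -4.33 in CD11b+ and -3.94 in CD11b+CD11c+ cells. Of 11 cDC1 genes, 11 and 10 were lower, at sums of 1323 and 1386 TPM in CD11c+ cells, 463 and 321 in CD11b+CD11c+ cells and 171 and 176 in CD11b+ cells. Of 14 macrophage genes 12 were higher and 1 lower in each, and of 12 natural killer and innate lymphoid genes 7 were lower and 4 higher in each. No gene of these lists was at 0 in any library, and their part in the differences of the 10 genes was not tested.

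The remaining comparison, CD11b+ against CD11b+CD11c+ cells, gave no call among the 10 genes. None passed edgeR's test, with adjusted p of 0.263 to 0.979, none had an unadjusted p under 0.05, and none passed with DESeq2 or limma. Of the 14225 genes tested, 9.63% passed in edgeR. The median log2 fold change of the 9 genes other than Cd8b1 was -0.08, against -0.01 over all genes. All 10 overlapped in CPM, but the share of all genes that overlapped was not counted. In TPM, CD11b+ and CD11b+CD11c+ cells did not overlap in Cd3d (1.34 and 1.07 against 3.38 and 2.88) or Zap70 (1.78 and 1.72 against 1.62 and 1.37). In both genes the TPM of CD11b+CD11c+ library 2 rested largely on few counts of short transcripts. The standard errors of the 9 genes other than Cd8b1 were 0.45 to 1.22, and 8 of them rested on 3 to 111 counts per library. Cd4, with 1209 to 2202 counts, had a log2 fold change of -0.08 (SE 0.71), and its libraries in the pairs of each group differed more than the group means.

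Within the CD11c+ pair, 9 of the 10 genes were apart by at least 2.16 times, in both directions. Library 1 was 4.24 times above library 2 in Cd3e, 4.07 in Cd3g, 3.91 in Cd3d, 3.64 in Cd8a, 2.97 in Lat, 2.89 in Zap70, 2.62 in Lck and 2.16 in Cd247. Cd8b1 was near equal at 4.22 and 3.68 TPM, 1.15 times apart, and Cd4 was 5.62 times higher in library 2. Marker lists also differed within the pair. The summed level of 12 intraepithelial and cytotoxic lymphocyte genes was 6389 TPM in library 1 and 1760 in library 2, 3.63 times apart, with Gzma at 495 and 76.8, Gzmb at 358 and 84.5 and Ccl5 at 3933 and 844 TPM. The 4 receptor chain genes were 3.10 times apart, with Trac at 128 and 27.4, Trbc1 at 192 and 82.7 and Trdc at 55.6 and 14.1 TPM.

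Of the 14 macrophage genes, 13 were at least 1.5 times higher in library 2, as Cd4 was, with Csf1r, the macrophage growth factor receptor, at 8.74 and 51.2 TPM. Timd4 was near equal at 106 and 110 TPM. The macrophage genes summed to 345 and 2697 TPM in libraries 1 and 2, of which Apoe made 168 and 2018, and to 177 and 679 TPM without Apoe. None of the 11 cDC1 genes was 1.5 times apart, and they summed to 1323 and 1386 TPM, with Xcr1 at 37.6 and 38.2 and Clec9a at 266 and 274 TPM. No gene of these 4 lists was at 0 in either library. Over all 10 libraries the macrophage sums were 10457 to 14752 TPM in the 4 CD11b-sorted libraries, where Cd4 was 34.9 to 58.6 TPM, but 876 and 1055 TPM in the spleen, where Cd4 was 55.1 and 62.9 TPM. A list of 10 genes of type 2 conventional dendritic cells (cDC2), Itgam among them, was also high in these groups. It summed to 920 and 958 TPM in CD11b+CD11c+ cells, 644 and 660 in CD11b+ cells and 741 and 729 in the spleen. The cDC2 sums were 501 and 464 TPM in colonic MHCII+ cells and 117 and 167 in CD11c+ libraries 1 and 2. The intraepithelial and cytotoxic sums were 189 to 555 TPM in the CD11b-sorted libraries. The part of these cells in the levels of the 10 genes was not tested.

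**Figure D4:**
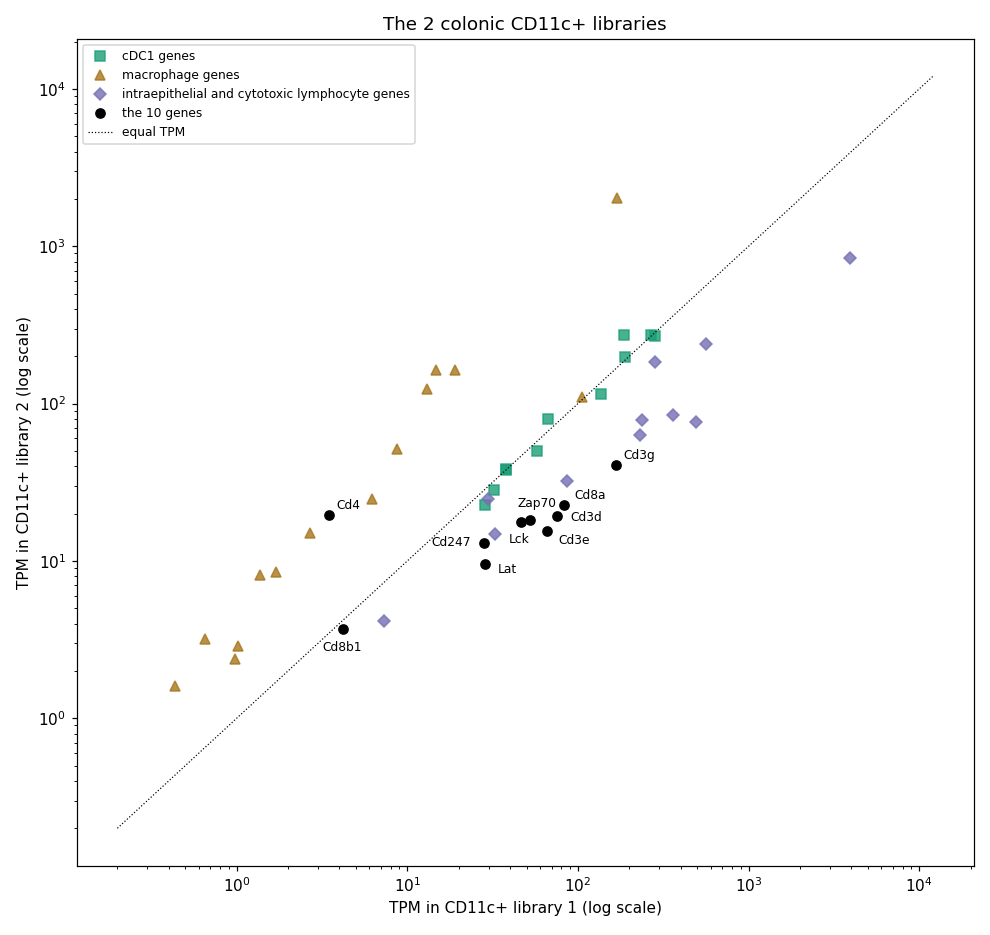
TPM in CD11c+ library 2 against TPM in CD11c+ library 1 on log axes, for the 10 genes (black, labelled) and 3 marker lists (Itgae, which stands on 2 lists, is drawn with the cDC1 genes), with a dotted line at equal TPM. The cDC1 genes lie along the line, 8 of the 10 genes lie below it, Cd8b1 is near it at 4.22 and 3.68 TPM, and Cd4 lies above it at 3.48 and 19.6 TPM, as do the macrophage genes other than Timd4, which is near the line.

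In the CD11b+CD11c+ pair, the 8 genes other than Cd4 and Cd8b1 were also higher in library 1. The ratio was 13.8 for Cd8a, from 54 and 3 counts, 6.33 for Cd3g, 4.34 for Cd3e, 2.23 for Lat, 1.68 for Lck, 1.61 for Cd247, 1.18 for Zap70 and 1.17 for Cd3d. In Lck, Zap70 and Cd3d the TPM of library 2 rested largely on few counts of short transcripts. Cd4 went the other way, at 34.9 and 58.6 TPM. The intraepithelial and cytotoxic sum was also higher in library 1 (555 and 189 TPM), as was that of the receptor chain genes (25.2 and 8.62 TPM). Gzma (31.7 and 3.13 TPM) and Trdc (2.39 and 0.146 TPM) were among the genes furthest apart in these lists. The cDC1 sum was 463 and 321 TPM, and the cDC1 genes did not all move together. Xcr1 was higher in library 1 (4.45 and 1.26 TPM), but Batf3 (72.7 and 73.3 TPM) and Cadm1 (8.29 and 15.1 TPM) were not. The CD11b+ libraries differed less, with Cd3e at 1.59 and 1.70 and Lat at 1.62 and 1.60 TPM. Gzma was at 12.3 and 10.1 TPM in them.

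Cd247 and Cd8a each have annotated transcripts with different coding sequences, and what these mean for the protein was not measured. The Cd247 gene makes the zeta chain and, by use of another last coding exon, an eta form with a different C-terminal end. In the files a short form of 495 coding bases ends in 66 bases at chr1:165861004-165861069, while 3 transcripts with the same coding sequence of 621 bases, the long forms, cannot be told apart and end in 192 bases at chr1:165866655-165866846 (mm10, plus strand). The first 430 bases of the short and long forms are the same. Among the long forms, Cd247-203 is annotated as a nonsense-mediated decay transcript. The ends are shown with the last 30 shared bases in lower case and what follows the last shared base in capitals.
Cd247 short form: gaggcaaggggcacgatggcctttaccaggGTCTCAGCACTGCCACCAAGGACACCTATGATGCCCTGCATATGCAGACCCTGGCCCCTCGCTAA
Cd247 long form: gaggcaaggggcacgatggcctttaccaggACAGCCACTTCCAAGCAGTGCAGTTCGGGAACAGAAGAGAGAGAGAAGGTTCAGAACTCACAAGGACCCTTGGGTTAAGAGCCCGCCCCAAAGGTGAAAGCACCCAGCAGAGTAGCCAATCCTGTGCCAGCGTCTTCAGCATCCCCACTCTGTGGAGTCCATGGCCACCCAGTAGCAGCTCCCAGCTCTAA

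The share of Cd247 counts on the long forms was 30.5% (95% interval 27.2 to 33.9) and 21.7% (18.7 to 24.9) in splenic MHCII+ cells, 24.2% (18.6 to 30.5) and 55.2% (44.7 to 65.4) in colonic MHCII+ cells and 18.5% (15.1 to 22.3) and 43.4% (35.6 to 51.5) in CD11c+ cells. In the CD11b-sorted cells it was 71.7% (56.5 to 84.01) and 76.9% (56.4 to 91.03) in CD11b+CD11c+ cells and 46.7% (28.3 to 65.7) and 63.2% (50.7 to 74.6) in CD11b+ cells. The 4 CD11b-sorted libraries lay between 46.7% and 76.9%, above both spleen libraries, and the colonic MHCII+ and CD11c+ pairs were split, with library 2 of each above the spleen. Within both pairs the library with the higher share had fewer Cd247 counts (96 against 215 and 159 against 475). The short form was near equal in colonic MHCII+ cells, at 43.8% of the counts in library 2 and 45.1% in the other library. Another transcript, of 534 coding bases, held 1.38 and 57.2 estimated counts in these libraries. In CD11c+ cells the short form took 49.1% in library 2 and 73.5% in the other library. The intervals are exact Clopper-Pearson intervals that cover counting error only, and kallisto assigns reads of shared stretches by estimation, so no test was made.

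A Cd8a transcript of 669 coding bases lacks a 31-base exon of the full form (744 coding bases) at chr6:71375888-71375918 on the plus strand of mm10. The coding lengths differ by more than these 31 bases, and only the exon is shown. In the full form this exon encodes the cysteine pair in the cytoplasmic tail through which CD8 alpha binds Lck, and the form without it is known as CD8 alpha prime. The exon is shown in capitals within the joined coding sequence, with 30 bases of the exon on each side.
Cd8a full form: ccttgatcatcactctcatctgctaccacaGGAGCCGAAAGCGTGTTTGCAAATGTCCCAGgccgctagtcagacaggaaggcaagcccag

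The form without the exon took 14.6% (13.5 to 15.7) and 19.2% (17.7 to 20.7) of the Cd8a counts in splenic MHCII+ cells, 8.18% (7.12 to 9.35) and 11.3% (8.47 to 14.7) in CD11c+ cells, and 3.97% (1.30 to 9.02) and 0% (0 to 6.38) in colonic MHCII+ cells, the last being 0 of 56 counts. The point values of these 3 groups did not overlap, with the spleen highest. The intervals of CD11c+ cells overlapped those of colonic MHCII+ cells and of the spleen. The counts behind the colonic MHCII+ values were 126 and 56 against 3998 and 2744 in the spleen. In the CD11b-sorted libraries Cd8a had 3 to 54 counts, too few to place the share. Lck counts fell on a single transcript of 1563 coding bases in 9 of the 10 libraries, with under 0.01 estimated counts elsewhere, while in CD11b+CD11c+ library 2 a 278-base transcript with 2.60 estimated counts made 65.0% of the Lck TPM.

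**Figure D5:**
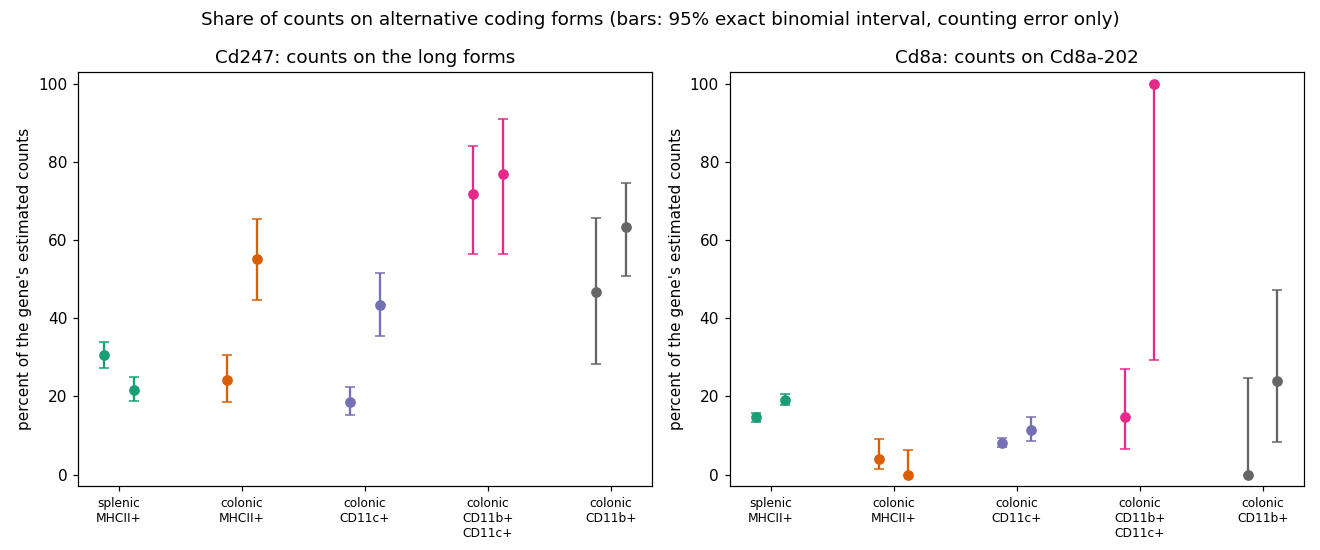
Share of the estimated counts of Cd247 on the long forms (left) and of Cd8a on the form without the 31-base exon (right) in percent for each library of the 5 groups, with exact 95% binomial intervals that cover counting error only. For Cd247 the 4 CD11b-sorted libraries lie between 46.7% and 76.9%; for Cd8a the spleen stands at 14.6% and 19.2%, above CD11c+ cells at 8.18% and 11.3% and colonic MHCII+ cells at 3.97% and 0%.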

How the data were processed

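Per the file headers, the authors deposited for each library a kallisto table with the estimated counts of each transcript, not scaled for depth, and its TPM, scaled to depth on effective lengths. Kallisto 0.44.0, sleuth and mm10 are named in the submitters' processing notes, which here give neither the index nor the strand setting. Transcript lengths were coding lengths (88.95% multiples of 3). Both values were summed per gene by GENCODE M21 identifier (98.48% of transcripts matched), and counts were rounded. The MHCII+ set and the subset set were fitted separately with edgeR 4.0.16 in R 4.3.3 (filterByExpr, TMM, group as the only term, quasi-likelihood test, Benjamini-Hochberg over all genes tested, threshold 0.05), checked on simulated counts. Alternatives used limma 3.58.1, DESeq2 1.42.0, other scalings and filters, a replicate block and leaving out each library.

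The members and lists were chosen with earlier results of these data known. The rule named all 10 members, for each up to 3 genes most correlated in log2(TPM + 1), and up to 3 abundant genes of a list; Trdc, Cd28, Ctla4, Sh2d2a, Syk, Clnk, Tcf7, Zbtb7b, Runx3, Lcp2, Hk3 levels and markers beside a result were added after their values were seen. Of 7 receptor chain genes listed, 4 were used.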

Additional observations from a re-analysis of the deposited data

How the results depend on the processing

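In the MHCII+ comparison and in both comparisons with CD11c+ cells, no member changed direction under any alternative run. The calls that changed are given in the results, except Cd3d in the MHCII+ comparison without a count filter (-0.86, adjusted p = 0.0339) and Zap70 with limma on log2(TPM + 0.1) (-1.13, adjusted p = 0.0102). The replicate numbers of the subsets pair nothing in the labels, and deviations of same-numbered libraries correlated at 0.26, -0.06 and -0.01. With a replicate block Cd4 passed against CD11c+ cells (2.26, adjusted p = 0.0146, and 2.28, adjusted p = 0.0164), and the block changed no other call of a member. No paired analysis was possible for the MHCII+ set because both splenic titles carry the same number. Between CD11b+ and CD11b+CD11c+ cells no member passed anywhere, and signs turned without TMM (Cd4 0.0053, Lck 0.043, Lat 0.037), with the replicate block (Lck 0.23, Lat 0.072) and with limma on log2(TPM + 0.1) (Cd3e 0.11, Cd8a 0.061). Without single libraries the range was -1.64 to 0.94 for Cd3d, -1.05 to 1.14 for Cd3e, -1.58 to 1.16 for Cd3g, -0.26 to 0.63 for Cd247, -0.42 to 0.27 for Cd4, -1.80 to 2.21 for Cd8a, 0 to 5.62 for Cd8b1 (fitted against groups with no count, so no bound), -0.78 to 1.36 for Lck, -0.60 to 1.40 for Zap70 and -0.47 to 0.45 for Lat. The genes passing there numbered 1370 (831 higher, 539 lower), but 831 with effective lengths, 844 and 743 with limma, and 226 to 771 without single libraries; the split was 960 and 393 without TMM and 983 and 1062 with DESeq2. Those passing in CD11b+ against CD11c+ cells (7392) ranged from 4372 to 6895 without single libraries, with 4372 and 4473 without CD11b+ library 1 or 2, and in CD11b+CD11c+ against CD11c+ cells (6110) from 3190, without CD11b+CD11c+ library 2, to 5707. Without TMM the latter split into 2475 higher and 4377 lower, against 2908 and 3202, with a median of all genes at -0.23 in place of -0.09. Low counts limit every value of the CD11b-sorted cells other than Cd4.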
